A study of Mus musculus with 24 samples.

Results

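Atoh1, Spdef, Muc2, Fcgbp, Zg16, Tff3, Agr2, Spink4 and Klk1 are taken here as genes of goblet cells of the mouse colon. They range from transcription factors to mucus proteins, a protease and a protease inhibitor. They are 9 of the 43280 gene symbols counted in each library, and all 9 passed the filter on low counts and were among the 14773 genes tested. Membership was set by name. Levels are given as CPM, a gene's count scaled to the same total count in every library.

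Goblet cells arise from crypt progenitors when ATOH1, a basic helix-loop-helix factor held down by Notch signalling, is switched on, and the ETS factor SPDEF drives their later maturation. They store MUC2, the gel-forming mucin of the colon, and release it together with proteins that build or line the mucus layer. AGR2 is a disulfide isomerase of the endoplasmic reticulum needed to make MUC2, FCGBP is a large protein bound into the mucin network, ZG16 is a lectin that binds bacterial cell walls, and TFF3 is a trefoil peptide known for epithelial repair. SPINK4 is a Kazal-type protease inhibitor made by goblet cells, and KLK1 is tissue kallikrein, a serine protease known from pancreas, salivary gland and kidney as well as from the colon.

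Poly(A) RNA of the distal colon was sequenced from female SCID mice of the strain C.B-17/Icr-scid/scid, 7 weeks old when bought, which lack mature T and B cells. There were 24 libraries, 4 in each of 6 groups. In 5 groups, colitis was set up by intravenous transfer of CD4+ T cells from BALB/c spleens that had been activated with Concanavalin A and IL-2, and treatment groups were balanced by diarrhea score on day 17. Colons of these 5 groups were taken on day 28. The Vehicle mice with colitis received only 0.5% methylcellulose. Mice of the MEKi 0.3 and MEKi 1 groups, also with colitis, were dosed orally each day between days 17 and 27 with enteric microparticles that held an inhibitor of the kinase MEK, at 0.3 and at 1 mg/kg. The anti-TNF and Isotype groups had colitis and received an antibody against the cytokine TNFa or a control antibody, injected into the peritoneum at 0.1 mg per mouse every 4 days from day 17. The Normal group had neither transfer nor treatment, and the labels give no day on which its colons were taken. Transfer, methylcellulose and time of sampling therefore cannot be told apart in Vehicle against Normal. No group was given microparticles without drug, so the particles and the drug cannot be told apart. The labels do not say that the 4 replicates of a group are separate animals, so the p-values cover the spread among these libraries, part or all of which could be technical. In whole tissue, fewer goblet cells and less RNA per goblet cell cannot be told apart.

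Library totals lay between 3052940 and 10587555 counts. The Isotype and anti-TNF libraries had 6139216 to 10587555 counts, and the Normal, Vehicle and MEKi libraries had 3052940 to 5840995. Depth and group therefore cannot be told apart in Isotype or anti-TNF against Normal, or in Isotype against Vehicle. A table of the whole series carries the same counts, with 16 of 24 columns headed by a different sample's name than the matching single-sample file. Groups were taken from the samples' own files, by which a summed level of 7 T cell markers was 123 to 169 CPM in Vehicle and 9.53 to 12.7 CPM in Normal, with Cd3d, Cd3e and Cd5 at 0 in all Normal libraries. By the table's column names, 0 of the 9 genes and 0 genes in all passed in Vehicle against Normal in edgeR. The table's columns hold the counts in the order of the samples, but its headings list replicates 1 and 2 of several groups before their replicates 3 and 4. This difference of order gives all 16 mismatches. Where it touched Normal, the T cell sums went with the files. It also exchanges anti-TNF replicates 1 and 2 with Isotype replicates 3 and 4, where the counts by themselves did not settle the labels. The same order exchanges names among Vehicle, MEKi 0.3 and MEKi 1, where T cell marker sums were 123 to 169, 93.5 to 144 and 45.7 to 119 CPM. These sums set Normal apart from colitis and do not settle the labels among the groups with colitis. Transcripts of exocrine pancreas, summed over 14 genes, reached 7903 CPM in Vehicle replicate 4 and 6128 CPM in Isotype replicate 1, against 1.49 to 151 CPM in the other 22 libraries. Klk1 and Zg16 are known from pancreas too, so results were also computed without both libraries. The epithelial marker Epcam averaged 1653 ± 145 CPM in Vehicle and 1765 ± 69.4 CPM in Normal (SD, n = 4 each), a log2 fold change of -0.14 ± 0.12 (SE) with an adjusted p of 0.34 in edgeR.

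Promoter windows of 4 of the genes are shown because their levels went different ways in colitis. Klk1 and Fcgbp were among the genes that fell, Agr2 was among those that rose, and Muc2 did not pass the test. Each window runs from 250 bases before to 50 bases after the start, as given by RefSeq on GRCm38.p6, and all lie on the plus strand. Windows were matched for 6 of the 9 genes, which leaves out Zg16, Tff3 and Spink4. Capitals mark CAGCTG or CAGATG, E-box hexamers of the kind that basic helix-loop-helix factors bind, and TATAAA, the TATA box. Both strands were searched, so that CATCTG is CAGATG read on the other strand.
Klk1, chr7:44225110-44225409: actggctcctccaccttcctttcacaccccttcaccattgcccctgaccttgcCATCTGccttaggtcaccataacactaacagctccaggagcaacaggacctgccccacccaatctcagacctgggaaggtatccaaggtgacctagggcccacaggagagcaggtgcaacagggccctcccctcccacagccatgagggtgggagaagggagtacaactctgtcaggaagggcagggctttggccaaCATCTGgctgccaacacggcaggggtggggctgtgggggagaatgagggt
Fcgbp, chr7:28070986-28071285: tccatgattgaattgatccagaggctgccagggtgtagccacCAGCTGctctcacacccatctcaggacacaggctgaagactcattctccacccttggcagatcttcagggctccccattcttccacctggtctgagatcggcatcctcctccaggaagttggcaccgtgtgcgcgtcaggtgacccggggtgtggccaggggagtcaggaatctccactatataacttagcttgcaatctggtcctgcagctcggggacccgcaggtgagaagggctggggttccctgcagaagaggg
Muc2, chr7:141690090-141690389: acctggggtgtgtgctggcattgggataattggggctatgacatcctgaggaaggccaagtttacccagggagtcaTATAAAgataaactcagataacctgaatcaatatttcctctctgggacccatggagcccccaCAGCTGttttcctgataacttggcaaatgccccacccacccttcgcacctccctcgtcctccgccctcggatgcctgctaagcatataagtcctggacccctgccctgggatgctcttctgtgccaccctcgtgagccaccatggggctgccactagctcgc
Agr2, chr12:35992675-35992974: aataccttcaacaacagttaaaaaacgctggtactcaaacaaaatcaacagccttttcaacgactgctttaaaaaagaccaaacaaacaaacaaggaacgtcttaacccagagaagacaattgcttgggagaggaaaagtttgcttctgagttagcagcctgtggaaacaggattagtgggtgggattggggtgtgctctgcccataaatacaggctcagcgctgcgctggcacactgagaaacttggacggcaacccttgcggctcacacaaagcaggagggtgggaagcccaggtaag
Klk1 had CAGATG on the minus strand at 2 places, from 197 bases before the start and from the start base itself, and 17.2% of the 32851 promoter windows of the same length held this hexamer. CAGCTG began 208 bases before the start of Fcgbp and 112 bases before that of Muc2, and 16.3% of all windows held it. TATAAA began 174 bases before the start of Muc2, and 13.6% of all windows held it. CCGGAT, with the GGAT core known of SPDEF, was in none of the 6 windows and in 6.04% of all windows. A hexamer at these frequencies is a description of the letters and not a binding site.

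Per kilobase of exon, which allows levels of different genes to be compared, Agr2 had the highest mean of the 9 genes in Vehicle, at 2361 ± 684 CPM per kilobase, and Zg16 had the highest in Normal, at 4503 ± 765 CPM per kilobase (SD, n = 4 each). Zg16 was at 877 ± 291 CPM per kilobase in Vehicle, below Agr2, Spink4 and Tff3. Klk1 was at 145 ± 20.1 CPM per kilobase in Vehicle and at 1706 ± 56.3 CPM per kilobase in Normal. The 2 transcription factors were lowest in both groups. Spdef had 52.7 ± 13.9 and Atoh1 16.3 ± 3.79 CPM per kilobase in Vehicle, against 27.5 ± 7.11 for Spdef and 34.6 ± 3.82 for Atoh1 in Normal. The per-length level of Muc2 is uncertain. It rests on 7127 exonic bases, the union of the exons of 8 protein-coding transcripts in the GENCODE M21 annotation.

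**Figure D1:**
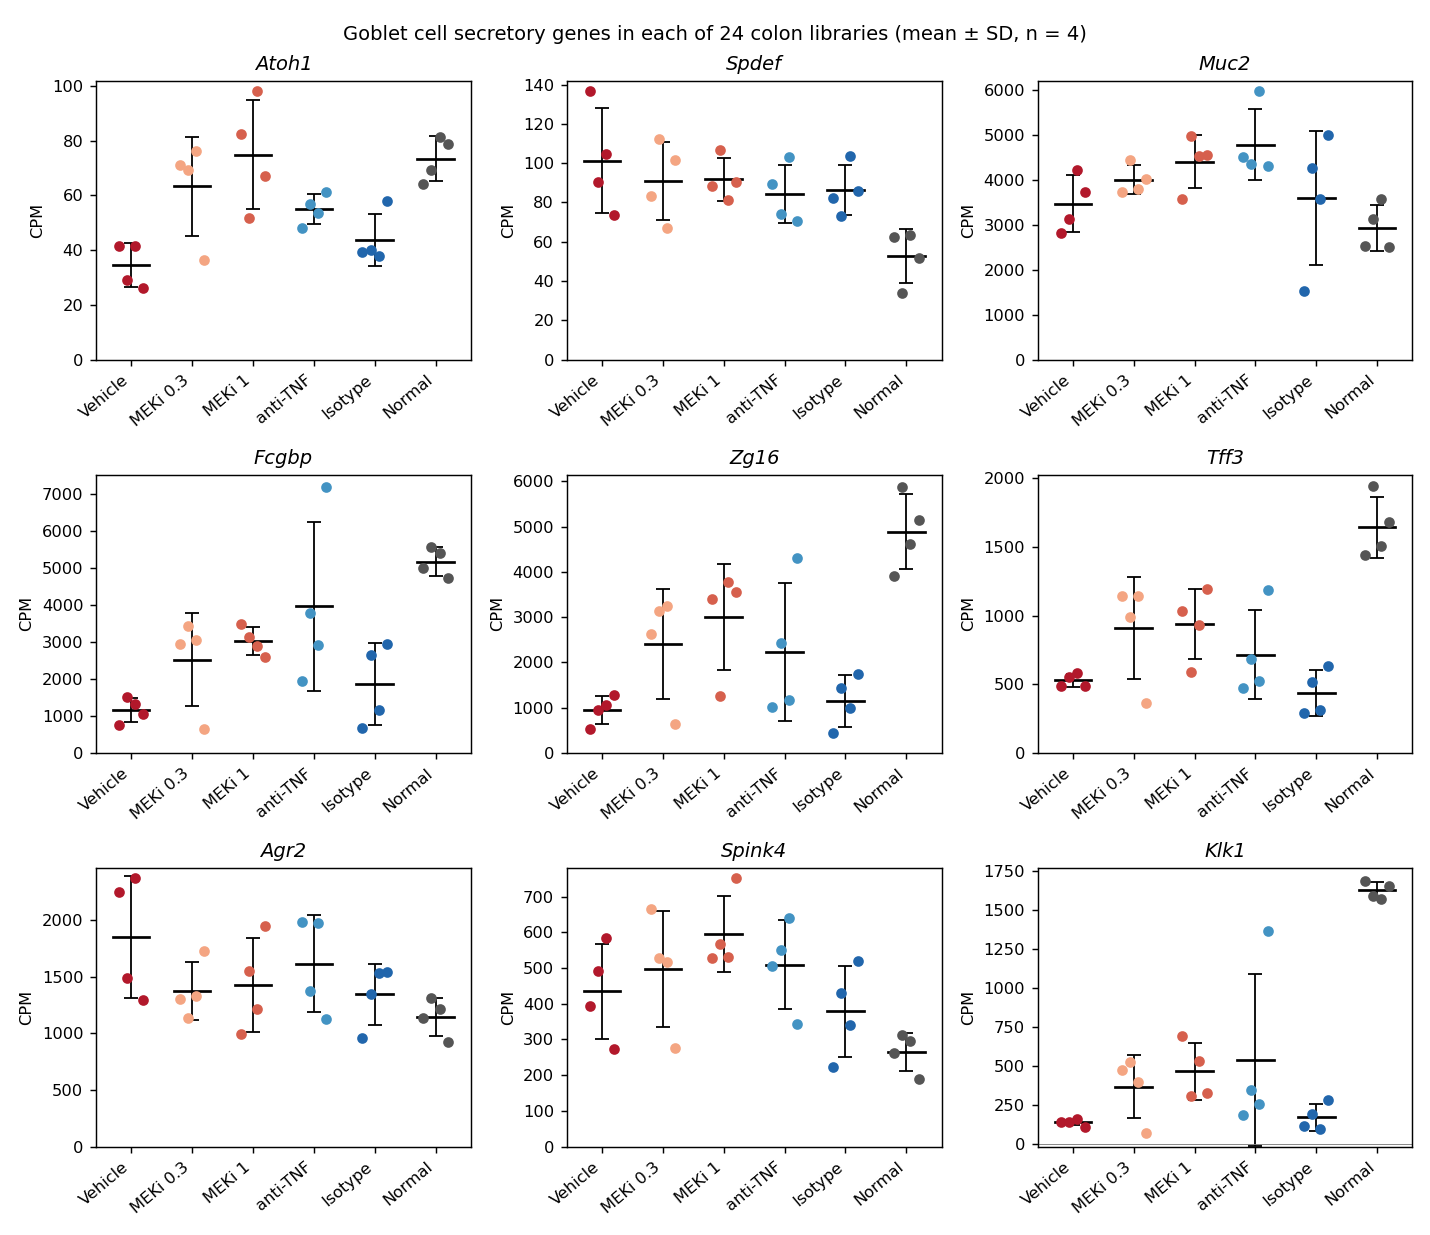
CPM of each of the 9 genes (vertical axes, linear) in all 24 libraries by group (horizontal axes), with points for libraries, long bars for group means and error bars for the SD (n = 4 per group). The 4 Vehicle libraries of Klk1 lie between 113 and 158 CPM and the 4 Normal libraries between 1573 and 1686 CPM, whereas the Muc2 libraries of both groups overlap.

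The 9 genes split in colitis. Vehicle and Normal differ by the T cell transfer and by methylcellulose, with no drug in either. In Vehicle against Normal, Atoh1, Fcgbp, Zg16, Tff3 and Klk1 fell, Spdef and Agr2 rose, and Muc2 and Spink4 did not pass the test. Thus 7 of 9 were called in edgeR at an adjusted p under 0.05, where 46.4% of all genes tested were called, 23.1% as higher and 23.3% as lower. Values of 6 of the 9 genes did not overlap between the groups, against 43.4% of all genes. The median log2 fold change was -1.13 over the 9 genes and 0.0017 over all genes tested.

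The 2 transcription factors moved in opposite directions. Atoh1 (chr6:64729125-64731245) had 41.4, 29.2, 41.7 and 26.3 CPM in the Vehicle libraries, against 64.1, 69.4, 81.4 and 79.0 CPM in the Normal libraries. All 4 Vehicle libraries were below all 4 Normal libraries, with a log2 fold change of -1.13 ± 0.22 (SE) and an adjusted p of 0.000269 in edgeR. Spdef (chr17:27714352-27728955) had 137, 90.5, 105 and 73.5 CPM in Vehicle, against 62.4, 34.1, 63.6 and 51.6 CPM in Normal. Every Vehicle library was above every Normal library, with a log2 fold change of 0.89 ± 0.20 and an adjusted p of 0.00109 in edgeR. The ratio of Spdef to Atoh1 was 2.51 to 3.30 in Vehicle and 0.491 to 0.973 in Normal.

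Among the secreted proteins, Klk1 fell furthest. Klk1 (chr7:44225360-44229618) had 139, 145, 158 and 113 CPM in Vehicle, against 1686, 1592, 1573 and 1658 CPM in Normal. The groups were far apart, and the fitted level was 12.1-fold lower in Vehicle, with a log2 fold change of -3.59 ± 0.61 (SE) and an adjusted p of 0.00016 in edgeR. The library with the most pancreas transcripts, Vehicle replicate 4, had the lowest Klk1 value of its group but the highest Zg16 value, at 1275 CPM. Isotype replicate 1, the other library with such transcripts, had the lowest Zg16 value of its group, at 438 CPM. The part of pancreas RNA in these values was not tested. Counts of 14 Klk1b paralogs on the same cluster summed to 6.59% of the Klk1 count in Isotype replicate 1 and 3.74% in Vehicle replicate 4. In every other library they summed to 0.334 to 1.43%. Klk1 overlaps the predicted gene Gm10109 and Zg16 the predicted genes Gm22747 and Gm44939, and how shared reads were counted is not stated in what was used here.

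The mucus proteins Fcgbp, Zg16 and Tff3 fell with it. Fcgbp (chr7:28071236-28120862) had 759, 1506, 1333 and 1041 CPM in Vehicle, against 4981, 5565, 5404 and 4725 CPM in Normal. This was a log2 fold change of -2.19 ± 0.48 (SE) with an adjusted p of 0.00101 in edgeR, and no Vehicle library reached the lowest Normal library. Zg16 (chr7:127050156-127087328) had 524, 944, 1064 and 1275 CPM in Vehicle, against 3912, 5878, 4621 and 5149 CPM in Normal. The groups again did not overlap, at a log2 fold change of -2.41 ± 0.54 and an adjusted p of 0.0015 in edgeR. Tff3 (chr17:31125306-31129646) had 491, 554, 581 and 487 CPM in Vehicle, against 1441, 1942, 1502 and 1677 CPM in Normal. Its Vehicle libraries were close to one another and all below Normal, with a log2 fold change of -1.68 ± 0.34 and an adjusted p of 0.00046 in edgeR.

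The mucin itself, its isomerase and the protease inhibitor did not fall. Muc2 (chr7:141690340-141754693) had 2804, 3121, 4219 and 3725 CPM in Vehicle, against 2533, 3115, 3568 and 2493 CPM in Normal. The groups overlapped, with a log2 fold change of 0.21 ± 0.24 (SE) and an adjusted p of 0.494 in edgeR, and the interval of 2 SE either side ran from -0.27 to 0.68. Agr2 (chr12:35992907-36004087) had 2244, 1492, 2372 and 1297 CPM in Vehicle, against 1131, 1311, 1219 and 919.6 CPM in Normal. It rose by 0.66 ± 0.24 on the log2 scale with an adjusted p of 0.0299 in edgeR, and 3 of 4 Vehicle libraries were above all Normal libraries. This call was lost, with an adjusted p of 0.0535 to 0.111, without Normal replicate 1, Normal replicate 4, Vehicle replicate 1 or Vehicle replicate 3, and with an offset for transcript length, at a log2 fold change of 0.39 and an adjusted p of 0.151. Spink4 (chr4:40920052-40931395) had 393, 492, 583 and 273 CPM in Vehicle, against 263, 311, 296 and 190.5 CPM in Normal. Its log2 fold change was 0.69 ± 0.29 with an adjusted p of 0.0538 in edgeR, and it passed with an adjusted p of 0.00944 without the 2 libraries with pancreas transcripts and of 0.037 in DESeq2, and in 8 of the 24 fits that leave out a library.

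The 5 genes that fell and Spdef kept their calls and directions without each of the 24 libraries in turn. Scaled to 9 genes of all epithelial cells in place of the whole library, the log2 fold changes were -1.04 for Atoh1, -2.12 for Fcgbp, -2.31 for Zg16, -1.59 for Tff3, -3.50 for Klk1, 1.00 for Spdef and 0.74 for Agr2, and all 7 passed. Beside these changes, 8 of 8 smooth muscle genes fell, 7 of 7 T cell genes and 6 of 6 neutrophil genes rose, and of 9 epithelial genes 1 rose and 2 fell. The summed smooth muscle markers ranged from 1516 to 3450 CPM in Vehicle and from 6756 to 8626 CPM in Normal. The summed neutrophil markers ranged from 486 to 1307 CPM in Vehicle and from 6.06 to 7.28 CPM in Normal, where Cxcr2 was at 0. Summed epithelial markers ranged from 14466 to 19773 CPM in Vehicle and from 14314 to 18946 CPM in Normal. The part that other cell types took in the results on the 9 genes was not tested.

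**Figure D2:**
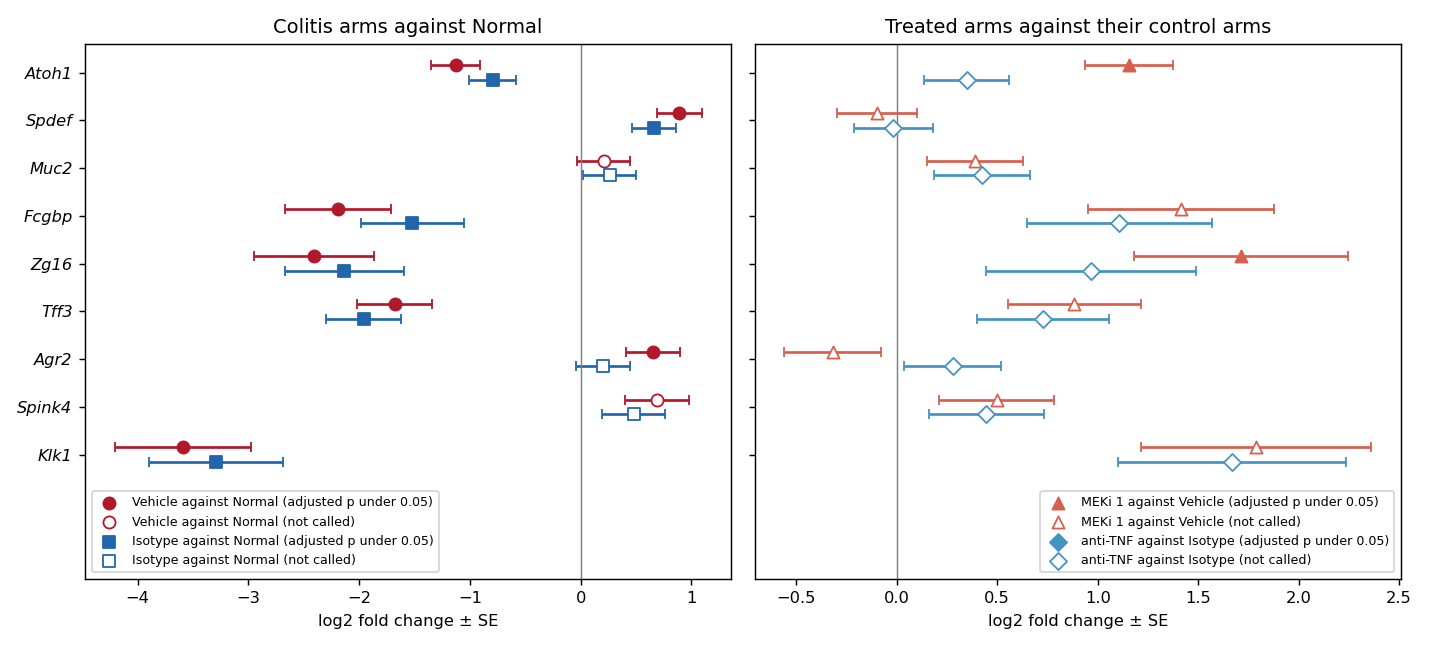
log2 fold change of each gene in edgeR with its SE (horizontal axes) for Vehicle and Isotype against Normal on the left and for MEKi 1 against Vehicle and anti-TNF against Isotype on the right. Filled symbols passed an adjusted p of 0.05 and open symbols did not; Klk1 lies at -3.59 and -3.30 on the left and at 1.79 and 1.67 on the right.

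The arm with the control antibody compares other libraries with colitis, but it was set against the same 4 Normal libraries. Its libraries were also deeper than every Normal library, and its mice received an antibody besides the transfer. In Isotype against Normal, Atoh1, Fcgbp, Zg16, Tff3 and Klk1 fell and Spdef rose, 6 of 9 genes, where 41.2% of all genes were called in edgeR. Klk1 had 116, 192, 93.8 and 286 CPM in Isotype, against 1573 to 1686 CPM in Normal, a log2 fold change of -3.30 ± 0.60 (SE) with an adjusted p of 0.000359. Tff3 had 289, 517, 312 and 631 CPM in Isotype, against 1441 to 1942 CPM in Normal, at -1.96 ± 0.34 and 0.000148. Both stayed below the Normal range in every Isotype library. Zg16 was at -2.13 ± 0.54 with an adjusted p of 0.0041, Fcgbp at -1.52 ± 0.46 with 0.0133, Atoh1 at -0.79 ± 0.21 with 0.00507 and Spdef at 0.66 ± 0.20 with 0.0111 in edgeR. Muc2 had 1525, 4253, 3582 and 5002 CPM in Isotype, against 2493 to 3568 CPM in Normal, and a log2 fold change of 0.26 ± 0.24 with an adjusted p of 0.391. Isotype replicate 1 had the lowest Muc2 value of all 24 libraries, and without that library Muc2 was 0.53 higher on the log2 scale with an adjusted p of 0.0212 in edgeR. Agr2, at 0.20 ± 0.24, and Spink4, at 0.48 ± 0.29, did not pass, with adjusted p-values of 0.529 and 0.185. Isotype against Vehicle, both with colitis, gave 0 of 9 genes in edgeR, 0 at an unadjusted p under 0.05 and 0 in DESeq2, where 2.99% of all genes were called in edgeR and 17.4% had such an unadjusted p.

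MEKi 1 was set against the same 4 Vehicle libraries that were set against Normal, so both comparisons are not independent. Under the higher dose of the MEK inhibitor, Atoh1 and Zg16 rose relative to Vehicle. These were 2 of 9 genes, where 10.6% of all genes were called in edgeR, 6.08% as higher and 4.51% as lower. Atoh1 had 82.6, 51.7, 98.2 and 67.1 CPM in MEKi 1, against 41.4, 29.2, 41.7 and 26.3 CPM in Vehicle. The lowest MEKi 1 library was above the highest Vehicle library, and the fitted level was 2.23-fold higher, a log2 fold change of 1.16 ± 0.22 (SE) with an adjusted p of 0.00995 in edgeR. This call held without each of the 24 libraries in turn. Zg16 had 3410.0, 1255, 3776 and 3556 CPM in MEKi 1, against 524, 944, 1064 and 1275 CPM in Vehicle. Of the MEKi 1 libraries, replicates 1, 3 and 4 were above all Vehicle libraries and replicate 2 lay within their range. The log2 fold change was 1.71 ± 0.53 with an adjusted p of 0.0453 in edgeR, and the call was lost in 17 of the 24 fits that leave out a library, with adjusted p-values up to 0.1246. It was kept only without MEKi 0.3 replicate 4, MEKi 1 replicate 2, Isotype replicate 1 or 4, or anti-TNF replicate 1, 3 or 4, and was lost with epithelial scaling, at 1.48 and 0.0631, and without both pancreas libraries, at 1.86 and 0.0698.

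The other genes that fell in colitis had higher levels in every MEKi 1 library than in any Vehicle library without passing the test. Values of 4 of the 9 genes did not overlap, all higher in MEKi 1, against 8.35% of all genes that were higher without overlap and 18.7% in either direction. Klk1 had 691, 309, 536 and 331 CPM in MEKi 1, against 139, 145, 158 and 113 CPM in Vehicle, a log2 fold change of 1.79 ± 0.57 (SE) with an adjusted p of 0.0517 in edgeR. Fcgbp had 3482, 3119.8, 2877 and 2593 CPM in MEKi 1, against 759, 1506, 1333 and 1041 CPM in Vehicle, at 1.42 ± 0.46 and 0.0536. Tff3 had 1035, 592, 930.2 and 1191 CPM in MEKi 1, against 491, 554, 581 and 487 CPM in Vehicle, at 0.88 ± 0.33 and 0.0801. Klk1, Fcgbp and Tff3 passed in DESeq2, at adjusted p-values of 0.0163, 0.0115 and 0.0437 with 2305 genes called in all, and in an edgeR fit of these 2 groups alone, at 0.00449, 0.00467 and 0.0179 with 2049 genes. Among the 24 fits of all groups that leave out a library, Klk1 and Fcgbp passed in 4 each and Tff3 in 2, and their adjusted p-values ran up to 0.164, 0.148 and 0.194. Scaled to epithelial genes, they did not pass, at adjusted p-values of 0.0678 to 0.121, nor did they with no filter, at 0.0995 to 0.176.

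The mucin, the isomerase, the inhibitor and Spdef showed smaller differences between MEKi 1 and Vehicle. Spdef had 81.1 to 107 CPM in MEKi 1, against 73.5 to 137 CPM in Vehicle, and a log2 fold change of -0.10 ± 0.20 (SE) with an interval of 2 SE either side from -0.49 to 0.30. Muc2 had 3572 to 4963 CPM in MEKi 1, against 2804 to 4219 CPM in Vehicle, at 0.39 ± 0.24 and from -0.09 to 0.87. Agr2 had 994 to 1952 CPM in MEKi 1, against 1297 to 2372 CPM in Vehicle, at -0.32 ± 0.24 and from -0.80 to 0.17. Spink4 had 528 to 752 CPM in MEKi 1, against 273 to 583 CPM in Vehicle, at 0.50 ± 0.29 and from -0.07 to 1.07. All 4 overlapped between the groups, and their adjusted p-values were 0.243 to 0.77 in edgeR. In the same comparison 4 of 7 T cell genes and 6 of 6 neutrophil genes fell, 1 of 9 epithelial genes and 1 of 8 smooth muscle genes rose, and the part of these cells in the results was not tested.

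At the lower dose 0 of 9 genes passed in edgeR, where 0.00677% of all genes, 1 gene, were called. At an unadjusted p under 0.05 there were 5 of the 9, Atoh1, Fcgbp, Zg16, Tff3 and Klk1, and 2639 or 17.9% of all genes tested. DESeq2 called 1 of the 9, Atoh1, with an adjusted p of 0.0301, and 92 genes in all. Atoh1 had 71.0, 69.4, 76.4 and 36.4 CPM in MEKi 0.3, against 41.4, 29.2, 41.7 and 26.3 CPM in Vehicle, a log2 fold change of 0.90 ± 0.22 (SE) with an adjusted p of 0.18 in edgeR. Klk1 had 474, 527, 401 and 74.1 CPM in MEKi 0.3, against 113 to 158 CPM in Vehicle, at 1.44 ± 0.57 and 0.22. Fcgbp had 2954, 3427, 3047 and 652 CPM in MEKi 0.3, against 759 to 1506 CPM in Vehicle, at 1.14 ± 0.46 and 0.223. In all 5 genes, replicates 1 to 3 were above every Vehicle library and replicate 4 was within or below the Vehicle range. The table of the whole series heads MEKi 0.3 replicates 3 and 4 as Vehicle replicates 3 and 4. It heads MEKi 0.3 replicates 1 and 2 as Normal replicates 3 and 4. Both follow from the order of headings described above. The T cell marker sums of MEKi 0.3 replicates 1 and 2 were 93.5 and 108 CPM, against 9.53 to 12.7 CPM in Normal. The counts were not used to test which name is right for MEKi 0.3 replicate 4. Without MEKi 0.3 replicate 4 all 5 passed, at log2 fold changes of 1.09 for Atoh1, 1.46 for Fcgbp, 1.69 for Zg16, 1.07 for Tff3 and 1.78 for Klk1 and adjusted p-values of 0.0261 to 0.0439 in edgeR, and 1130 genes were called in all. The summed neutrophil markers were at 131, 83.0, 203 and 728 CPM in the 4 MEKi 0.3 libraries, against 486 to 1307 CPM in Vehicle, so that replicate 4 was within the Vehicle range. Same-numbered MEKi 0.3 and Vehicle libraries deviated together, and with the replicate number as a block in a fit of these 2 groups Atoh1 passed, at 0.87 and an adjusted p of 0.0221, and 405 genes were called. MEKi 1 against MEKi 0.3 gave 0 of 9 genes in edgeR, 0 at an unadjusted p under 0.05 and 0 in DESeq2, where 0% of all genes were called in edgeR and 4.34% had such an unadjusted p.

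The TNF antibody gave 0 of 9 genes relative to Isotype in edgeR, where 0.0203% of all genes were called, and 0 in DESeq2. At an unadjusted p under 0.05 there were 3 of the 9, Fcgbp, Tff3 and Klk1, and 1653 or 11.2% of all genes tested. Klk1 had 188, 347, 258 and 1364 CPM in anti-TNF, against 116, 192, 93.8 and 286 CPM in Isotype, a log2 fold change of 1.67 ± 0.57 (SE) with an adjusted p of 0.292 in edgeR. Fcgbp had 1954, 3767, 2919.6 and 7190.4 CPM in anti-TNF, against 675, 2643, 1169 and 2949 CPM in Isotype, at 1.11 ± 0.46 and 0.368. Tff3 had 473, 680.4, 522 and 1182 CPM in anti-TNF, against 289, 517, 312 and 631 CPM in Isotype, at 0.73 ± 0.33 and 0.417. Without anti-TNF replicate 4 the log2 fold changes were 0.65 for Klk1, 0.65 for Fcgbp and 0.37 for Tff3, with adjusted p-values of 0.969, 0.96 and 0.99 in edgeR, and over all 24 fits that leave out a library Klk1 ran up to 2.02. The groups overlapped in all 9 genes, where 5.23% of all genes did not overlap, and anti-TNF replicate 4 was the highest of its group in Atoh1, Fcgbp, Zg16, Tff3 and Klk1 and the lowest in Spdef, Muc2, Agr2 and Spink4. Its summed neutrophil markers were at 48.0 CPM, against 126 to 479 CPM in the other 3 anti-TNF libraries, and their part in the result was not tested. Muc2 had 4495, 4359, 5971 and 4301 CPM in anti-TNF, against 1525, 4253, 3582 and 5002 CPM in Isotype, at 0.43 ± 0.24 and 0.524, and at 0.16 without Isotype replicate 1. The difference between the effect of MEKi 1 over Vehicle and that of anti-TNF over Isotype passed for 0 of 9 genes in edgeR, where 0.0135% of all genes were called, with 1 gene, Atoh1, at an unadjusted p under 0.05, as for 4.93% of all genes, and 0 in DESeq2. Atoh1 had a difference of effects of 0.81 ± 0.30 on the log2 scale with an adjusted p of 0.85.

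The treated arms were also set against the same 4 Normal libraries. In MEKi 1, Spdef and Spink4 rose and Klk1 fell, 3 of 9 genes where 12.8% of all genes were called in edgeR. In MEKi 0.3, Spdef and Spink4 rose and Klk1 fell as well, 3 of 9 genes where 19.9% of all genes were called. In anti-TNF, Spdef, Muc2 and Spink4 rose and Tff3 and Klk1 fell, 5 of 9 genes where 22.4% of all genes were called. Spink4 had 528, 566, 531 and 752 CPM in MEKi 1 and 505, 550.2, 639 and 342 CPM in anti-TNF, against 263, 311, 296 and 190.5 CPM in Normal. Every library of both arms was above Normal, at log2 fold changes of 1.18 ± 0.29 (SE) with an adjusted p of 0.00918 for MEKi 1 and 0.92 ± 0.29 with 0.025 for anti-TNF in edgeR. Klk1 remained below all Normal libraries, at -1.80 ± 0.57 and 0.0437 in MEKi 1, -2.16 ± 0.58 and 0.0128 in MEKi 0.3 and -1.63 ± 0.57 and 0.0454 in anti-TNF. The Klk1 call in MEKi 1 was lost in 13 of the 24 fits that leave out a library, among them each Normal library and MEKi 1 replicates 2, 3 and 4, with adjusted p-values up to 0.13, and also with no filter on low counts and without both pancreas libraries, at 0.0862 and 0.0525. The Klk1 call in anti-TNF was lost in 17 of them, among them each Normal library and anti-TNF replicates 1, 2 and 3, with adjusted p-values up to 0.143. It was also lost with library size only, with no filter, with the length offset, in the fit of only these groups and without both pancreas libraries, at adjusted p-values of 0.0521 to 0.101. The Spink4 call in MEKi 0.3 was lost without Normal replicate 1, 3 or 4 or MEKi 0.3 replicate 1, 2 or 3, and in anti-TNF without Normal replicate 4 or anti-TNF replicate 1, 2 or 3. With no filter and with the length offset the Spink4 call in MEKi 0.3 was lost too, at 0.0666 and 0.0861. The Spdef call in anti-TNF was lost without Normal replicate 2 or 4 or anti-TNF replicate 1 or 3, and the Tff3 call without anti-TNF replicate 1 or 3 and with the length offset, at -0.86 and an adjusted p of 0.0777. Muc2 was 0.69 ± 0.24 higher in anti-TNF on the log2 scale with an adjusted p of 0.0407, and this call was lost, with adjusted p-values of 0.0575 to 0.141, without Normal replicate 1, 2 or 4 or anti-TNF replicate 1, 2 or 3, and at 0.0513 with a minimum mean of 5 CPM. Leaving out anti-TNF replicate 1 or 3 left 0 of the 9 genes called in that comparison. Atoh1 was at 0.03 ± 0.21 in MEKi 1, with an adjusted p of 0.946 and an interval of 2 SE either side from -0.40 to 0.45.

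**Figure D3:**
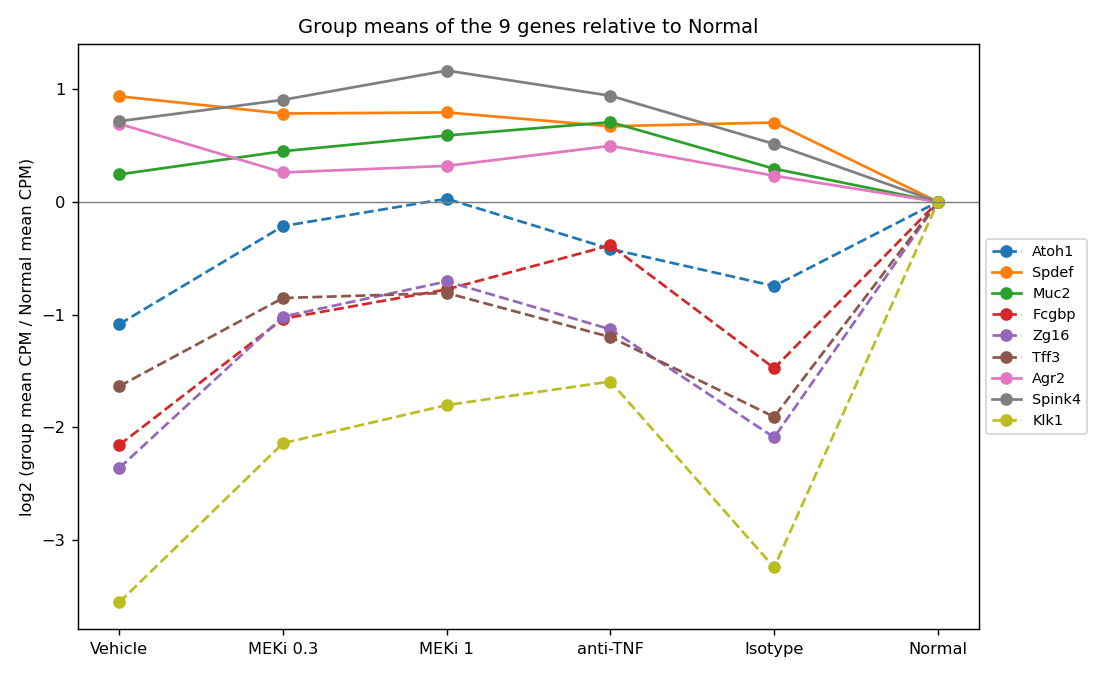
log2 of the group mean CPM over the Normal mean CPM (vertical axis) for the 9 genes in the 6 groups (horizontal axis); lines only join the points of 1 gene, solid for Spdef, Muc2, Agr2 and Spink4 and dashed for the other 5. The solid lines lie above 0 in all 5 colitis groups, and the dashed lines of Fcgbp, Zg16, Tff3 and Klk1 lie below 0 in all 5.

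The make-up of the transcripts of these 9 genes differed along with their sum, which does not stand for all goblet cell transcripts. A list of 16 other goblet cell products and granule genes, read further below, summed to 1344 to 1869 CPM in Vehicle and 1502 to 1801 CPM in Normal. The 9 genes took 0.753, 0.837, 1.05 and 0.831% of all counts in Vehicle, against 1.61, 1.98, 1.83 and 1.69% in Normal. They took 0.790 to 1.44% at the lower and 1.25 to 1.51% at the higher MEKi dose, 1.08 to 2.00% in anti-TNF and 0.435 to 1.28% in Isotype. Muc2 alone made up 37.2 to 44.8% of the counts of the 9 genes in Vehicle, against 14.7 to 19.5% in Normal. For every Klk1 count there were 20.1, 21.6, 26.6 and 33.1 Muc2 counts in Vehicle, against 1.5, 1.96, 2.27 and 1.5 in Normal. This ratio was 7.87 to 54.3 in MEKi 0.3, with replicate 4 at the upper end. In MEKi 1 it was 5.17 to 16.1, below every Vehicle library. It was 3.15 to 23.9 in anti-TNF and 13.1 to 38.2 in Isotype. A ratio within a library shows unequal change and not which of the genes changed.

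**Figure D4:**
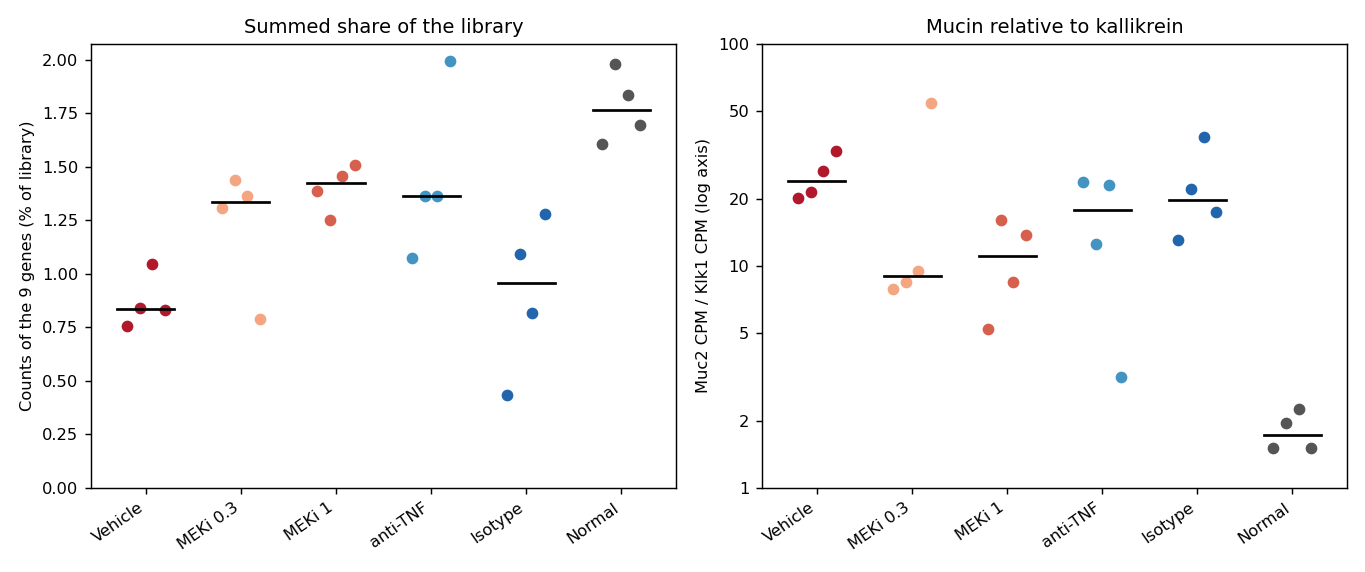
Counts of the 9 genes as a percentage of the library (left, linear axis) and the ratio of Muc2 to Klk1 (right, log axis) in each of the 24 libraries by group, with points for libraries and bars for group medians. The share is 0.753 to 1.05% in Vehicle and 1.61 to 1.98% in Normal, and the ratio is 20.1 to 33.1 in Vehicle and 1.5 to 2.27 in Normal.

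Other genes of the pathway were read from lists chosen by function. Their counts stand beside 23.1% of all genes tested that rose and 23.3% that fell in Vehicle against Normal, and 6.08% that rose and 4.51% that fell in MEKi 1 against Vehicle, where the median log2 fold changes of all genes were 0.0017 and 0.0045. Both comparisons use the same Vehicle libraries, and genes were named by their p in MEKi 1 against Vehicle. Chance in the Vehicle libraries alone moves both changes of a gene in opposite directions, so opposite signs are partly built in. Of 17 regulators of secretory cell fate tested, 1 rose and 6 fell in Vehicle against Normal, and 4 rose and 0 fell in MEKi 1 against Vehicle, with medians of -0.47 and 0.43. Dll1, a Notch ligand, fell in Vehicle at -0.81 ± 0.26 with an adjusted p of 0.0128 and rose in MEKi 1 at 1.29 ± 0.26 with 0.0108. Foxa2, a forkhead factor of gut endoderm, fell in Vehicle at -1.86 ± 0.31 with 7.73e-05 and rose in MEKi 1 at 1.33 ± 0.31 with 0.0161 in edgeR. The Notch ligand Dll4 rose in MEKi 1 at 0.73 ± 0.20 with 0.0282 and was at -0.31 ± 0.20 with 0.221 in Vehicle against Normal.

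Of 15 other goblet cell products and granule genes tested, 4 rose and 7 fell in Vehicle against Normal, and 3 rose and 1 fell in MEKi 1 against Vehicle, with medians of -0.62 and 0.32. Scin, the actin-severing protein scinderin, averaged 34.7 CPM in Vehicle and 306 CPM in Normal and fell at -3.18 ± 0.65 (SE, adjusted p of 0.000718 in edgeR). It averaged 144 CPM in MEKi 1 and rose there over Vehicle at 2.08 ± 0.63 with 0.0416. Rep15, a RAB15 effector protein, fell in Vehicle at -1.38 ± 0.35 with 0.00305 and rose in MEKi 1 at 1.35 ± 0.35 with 0.0244. Tff1, a trefoil peptide of the stomach, was at 0 in all Normal libraries and averaged 4.03 CPM in Vehicle and 0.303 CPM in MEKi 1, and it fell in MEKi 1 at -3.58 ± 0.81 with 0.0151. Clca1 and Retnlb, both secreted by goblet cells and chosen after their values were seen, rose in Vehicle at 1.99 ± 0.25 with 1.83e-06 and at 2.92 ± 0.62 with 0.00102.

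Of 19 enzymes of mucin O-glycosylation tested, 6 rose and 8 fell in Vehicle against Normal, and 1 rose and 4 fell in MEKi 1 against Vehicle, with medians of -0.29 and 0.14. St3gal1, a sialyltransferase, rose in Vehicle at 1.94 ± 0.31 with an adjusted p of 5.23e-05 in edgeR and fell in MEKi 1 at -1.25 ± 0.30 with 0.0183. Galnt3, which starts O-glycan chains, rose in Vehicle at 1.00 ± 0.18 with 0.00013 and fell in MEKi 1 at -0.67 ± 0.18 with 0.0251. B4galnt3, a beta-N-acetylgalactosaminyltransferase, went the other way, at -2.34 ± 0.49 with 0.00086 in Vehicle and 1.67 ± 0.49 with 0.0379 in MEKi 1.

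Of 12 genes tested for protein folding in the secretory pathway, the group in which AGR2 works, 10 rose and 0 fell in Vehicle against Normal and 0 passed in MEKi 1 against Vehicle, with medians of 0.67 and -0.49. The isomerase genes P4hb and Pdia6 averaged 1124 and 572 CPM in Vehicle, against 593 and 299.6 CPM in Normal, with log2 fold changes of 0.88 ± 0.20 and 0.90 ± 0.24 (SE) and adjusted p-values of 0.00108 and 0.0043 in edgeR. Among 4 membrane mucins, which stay on the cell surface, Muc1 and Muc20 rose in Vehicle at 1.80 ± 0.38 and 1.95 ± 0.31 and Muc3 fell at -1.83 ± 0.34. Muc3 rose in MEKi 1 over Vehicle at 1.14 ± 0.33 with an adjusted p of 0.0353. Among 4 cytokines tested that act on goblet cells, Ifng and Tnf rose in Vehicle and Il18 fell, and 0 passed in MEKi 1 against Vehicle.

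Genes of other cells of the crypt were read in the same way. Of 9 genes of deep crypt secretory, enteroendocrine and tuft cells, 9 fell in Vehicle against Normal and 0 passed in MEKi 1 against Vehicle, with medians of -1.94 and 1.03. Their summed level was 245 to 461 CPM in Vehicle and 956 to 1873 CPM in Normal. Of 11 genes of surface colonocytes tested, 2 rose, 6 fell and 3 did not pass in Vehicle against Normal, with a median of -0.70. The chloride exchanger Slc26a3 averaged 146 ± 14.2 CPM in Vehicle and 1583 ± 354 CPM in Normal (SD, n = 4 each), at -3.49 ± 0.62 (SE) with an adjusted p of 0.000211 in edgeR. In MEKi 1 against Vehicle 2 of the 11 rose, Car4 at 1.40 ± 0.43 with 0.0432 and Aqp8 at 2.98 ± 0.92 with 0.0456.

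Likeness across the 24 libraries was measured as the mean absolute difference of log2 CPM after centring each gene on its own mean. Spdef and Agr2 were the closest pair, at 0.256, and Spink4 and Muc2 were at 0.308. Zg16 and Tff3 were at 0.363 and Fcgbp and Zg16 at 0.408. Klk1 and Agr2 were the farthest pair, at 1.38. These distances depend on how much a gene varies. The mean absolute deviation from a gene's own mean was 0.300 for Muc2, 0.308 for Spdef, 0.309 for Agr2, 0.430 for Atoh1 and 0.472 for Spink4. It was 0.701 for Tff3, 0.807 for Fcgbp, 0.989 for Zg16 and 1.16 for Klk1. Muc2 was thus no nearer to Spink4 than to a flat line. Among 10954 other genes with a mean of at least 5 CPM, the closest to the mean profile of the 9 genes was Slc25a35, at 0.140, followed by Bphl, Golph3l, Hoxa13 and Nedd4l. The closest to Klk1 was Ddc, at 0.305, the closest to Muc2 was Uaca, at 0.186, and the closest to Atoh1 was Appl2, at 0.168. All genes share the groups and depths of these libraries, and the distances are descriptions.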

How the data were processed

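Per the labels, poly(A) RNA was fragmented with RNase III and made into Ion Total RNA-Seq libraries. The authors deposited raw counts per gene symbol for each of the 24 samples, and the submitters' processing notes name mm10. The aligner, counter, annotation and use of strand were not stated in the labels or notes used here. Groups came from each sample's own file and labels. Of 24 value columns in the authors' deposited table, 16 hold another sample's counts and 0 were unmapped. No replicates agreed within sampling noise, with chi-square values of 5.38 to 59.9 per gene with a summed count of at least 20.

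Counts were tested in R 4.3.3 with edgeR 4.0.16, using filterByExpr, TMM scaling, a robust quasi-likelihood fit of all 24 libraries and Benjamini-Hochberg adjustment over 14773 genes at 0.05. The SE is the log2 fold change divided by the root of F, and intervals are 2 SE either side. CPM used library totals, and exon lengths and positions came from GENCODE M21 on GRCm38. The tests were checked on simulated data. DESeq2 1.42.0 was an alternative, and the others tried were library size only, scaling to epithelial genes and an offset for transcript length. Other filters were none, which kept every symbol with a count in any library, and a minimum mean of 5 CPM. Further settings were a fit of only the groups compared, replicate blocks, the table's column names, and leaving out each library or both pancreas libraries. Tables were made with Python 3.11.15, pandas 2.3.3 and numpy 2.4.6.

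The 9 genes and all lists were chosen with earlier results of these data known. From each list at most 3 genes called in Vehicle against Normal or MEKi 1 against Vehicle were named, those with the smallest p in MEKi 1 against Vehicle. Clca1 and Retnlb were named outside this rule, after their values were seen. Deviations of same-numbered MEKi 0.3 and Vehicle libraries from their group means correlated at 0.126, 0.125, 0.167 and 0.184, all over the 0.1 taken as pairing. This pairing is read from the data, since the labels give only the numbers.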

Additional observations from a re-analysis of the deposited data

Results flagged for a closer look

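In 6 of 54 combinations of gene and group, 1 of the 4 libraries stood apart from the other 3, with a gap to its neighbour, as a part of the group's range, above Dixon's critical value. Chance flags about 1 in 20 such groups. Atoh1 was at 57.9 CPM in Isotype replicate 4, above the other 3 at 37.8 to 40.02 CPM. Muc2 was at 5971 CPM in anti-TNF replicate 3, above the other 3 at 4301 to 4495 CPM. Fcgbp was at 652 CPM in MEKi 0.3 replicate 4, below the other 3 at 2954 to 3427 CPM. Zg16 was at 1255 CPM in MEKi 1 replicate 2, below the other 3 at 3410.0 to 3776 CPM. Spink4 was at 752 CPM in MEKi 1 replicate 4, above the other 3 at 528 to 566 CPM. Klk1 was at 1364 CPM in anti-TNF replicate 4, above the other 3 at 188 to 347 CPM.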

How the results depend on the processing

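The 6 calls of Vehicle against Normal for Atoh1, Spdef, Fcgbp, Zg16, Tff3 and Klk1 kept their side and direction under every setting tried but the table's column names. In the treated arms the intervals were wide, and a missed test there does not show that a gene was the same. The lowest count of any of the 9 genes in a library was 104, for Spdef. The cause of each change below was not tested.

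With library size only, 1 of the 9 genes was called in MEKi 1 against Vehicle. Scaled to epithelial genes, it was also 1, 1 gene was called in anti-TNF against Isotype and 161 in Isotype against Vehicle, and Atoh1 was at -0.080 in MEKi 1 against Normal. With no filter, 3 genes were called in MEKi 0.3 against Vehicle, 773 genes and 1 of the 9 in MEKi 1 against Vehicle, and 267 in Isotype against Vehicle. With a mean of at least 5 CPM, 0 genes were called in anti-TNF against Isotype, and Atoh1 was at -0.0082 in MEKi 1 against Normal. With the length offset, Spdef was at 0.0053 in anti-TNF against Isotype, Atoh1 at -0.062 in MEKi 1 against Normal, and 20 genes were called in Isotype against Vehicle.

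By the table's column names, Vehicle against Normal gave 0 genes and 0 of the 9, with Atoh1 at 0.0020, Spdef at -0.053, Muc2 at -0.0035 and Spink4 at -0.48. Isotype against Normal gave 262 genes and 0 of the 9, with Spink4 at -0.082. MEKi 0.3 against Vehicle gave 0 genes, with Atoh1 at -0.45, Spdef at 0.55, Fcgbp at -0.68, Zg16 at -1.19, Tff3 at -0.85, Agr2 at 0.25 and Klk1 at -1.57. MEKi 1 against Vehicle gave 0 genes and 0 of the 9, with Atoh1 at -0.21, Spdef at 0.33, Fcgbp at -0.80, Zg16 at -0.48, Tff3 at -0.53, Agr2 at 0.43 and Klk1 at -1.69. Anti-TNF against Isotype gave 0 genes, with Spdef at 0.23. Against Normal, MEKi 0.3 gave 0 genes, MEKi 1 gave 1 with Atoh1 at -0.21 and anti-TNF gave 207, each with 0 of the 9. Isotype against Vehicle gave 162 genes and the difference of effects 0. With only the libraries on which file and table agree, which left none for Vehicle and MEKi 0.3, Isotype against Normal gave 1033 genes and 2 of the 9, with Muc2 at -0.060 and Agr2 at -0.18. Anti-TNF against Isotype gave 1 gene, with Spdef at 0.23, and MEKi 1 and anti-TNF against Normal gave 73 and 72 genes, with 0 of the 9.

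Fits of only the groups compared gave 0 genes in MEKi 0.3 against Vehicle and in anti-TNF against Isotype, 2049 genes and 5 of the 9 in MEKi 1 against Vehicle and 1731 genes and 6 of the 9 in MEKi 1 against Normal. With the replicate block in such fits, MEKi 0.3 against Vehicle gave 405 genes and 1 of the 9, MEKi 1 against Vehicle 1578 genes and 5 of the 9, anti-TNF against Isotype 277 genes and 3 of the 9, MEKi 0.3 and MEKi 1 against Normal 1841 and 1207 genes, Isotype against Vehicle 164 genes and the difference of effects 5. The 3 in anti-TNF against Isotype were Fcgbp at 1.18, Tff3 at 0.71 and Klk1 at 1.33, with adjusted p-values of 0.0219, 0.0373 and 0.0434. Against Normal the block over all libraries ended the Klk1 calls in MEKi 1 and anti-TNF, at 0.0705 and 0.0549, and the block in a fit of only these groups ended the Spdef call in MEKi 0.3, at 0.07. The correlation of same-numbered libraries was over 0.1 in all 4 pairs in MEKi 0.3 against Vehicle and in no other comparison, and in anti-TNF against Isotype it was 0.216, 0.0862, 0.142 and 0.342. DESeq2 gave 92 genes and 1 of the 9 in MEKi 0.3 against Vehicle, 5 of the 9 in MEKi 1 against Vehicle with 2305 genes and in MEKi 0.3 against Normal with 3402, 2 genes in MEKi 1 against MEKi 0.3, 85 in anti-TNF against Isotype, 802 in Isotype against Vehicle and 8 in the difference of effects. Without both pancreas libraries, MEKi 1 against Vehicle gave 391 genes and 1 of the 9, and Isotype against Vehicle 154 genes.

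Leaving out each library in turn kept 551 of 624 called values and reversed 0 of them. Counts of genes were 0 to 1130 in MEKi 0.3 against Vehicle, 43 to 2369 in MEKi 1 against Vehicle, 0 to 1 in MEKi 1 against MEKi 0.3, 1 to 34 in anti-TNF against Isotype, 1835 to 3337 in MEKi 0.3, 1026 to 2306 in MEKi 1 and 1869 to 4831 in anti-TNF against Normal, 128 to 564 in Isotype against Vehicle and 2 to 5 in the difference of effects. Of the 9 genes, 0 to 5 were called in MEKi 0.3 and 1 to 5 in MEKi 1 against Vehicle, and 0 to 6 in anti-TNF against Normal. Spdef was at -0.27 to 0.027 in MEKi 0.3 and -0.23 to 0.061 in MEKi 1 against Vehicle and -0.13 to 0.12 in anti-TNF against Isotype, and Atoh1 at -0.12 to 0.20 in MEKi 1 against Normal.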
